A study of Mus musculus with 36 samples.

Results

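The genes described here are 38 genes of oxidative fuel use in mitochondria, read in the left ventricle of mice with 3 inducible heart transgenes. They were listed by name, without a threshold on their values, but with earlier results of these data known. The group holds 17 genes of the citric acid cycle, 7 genes of the pyruvate dehydrogenase complex and its kinases, and 14 genes of branched-chain amino acid catabolism. The 38 genes had 77 probe sets on the array, 26 of them had more than 1, and the brightest probe set per gene by its mean over the 36 arrays was used. The array annotation named 18193 genes in all, and 12626 passed the filter on low signals, which kept probe sets with a mean log2(signal + 32) of at least 8.802. All 38 passed. Pdk3 passed at a mean of 9.22, with 5 of its 6 shared control arrays under the matching signal of 414.3, so it was kept through the arrays in which it was high.

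RNA from cardiac left ventricle was hybridised to Affymetrix Mouse Genome 430 2.0 arrays, 1 sample per array and 36 in all. Every transgenic mouse carried a Cre-activated transgene behind the alpha myosin heavy chain promoter of heart muscle cells, together with Mer-Cre-Mer, a tamoxifen-dependent Cre recombinase, behind that same promoter. The transgenes were HRas-v12, a constantly active Ras that acts on ERK, MKK3bE, an active kinase that switches on p38, and MKK7D, an active kinase that switches on JNK. Transgenic mice and littermates without a transgene, all on a C57 black background, were given tamoxifen at 20 mg/kg by intraperitoneal injection on 3 days at an age of 12 weeks.

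HRas-v12 hearts were taken early, at 4 to 7 days (2 female and 3 male arrays), or late, at 2 to 4 weeks (3 female and 3 male arrays). MKK3bE had 2 female arrays early, and 2 female and 3 male arrays late. MKK7D had 3 female arrays at each time and 3 female controls of its own at each time. A further 3 male and 3 female control arrays, whose titles name no time, served both HRas-v12 and MKK3bE at both times, so the comparisons of these lines share their controls. No titled group carried Mer-Cre-Mer without a second transgene, so effects of the driver and of the transgene cannot be told apart. The titles number the arrays as replicates without naming animals, so the p-values cover the spread from array to array, which may be technical, and precision is limited by how many arrays there are.

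As background, pyruvate enters the cycle through the pyruvate dehydrogenase complex as acetyl-CoA, and pyruvate dehydrogenase kinases switch that complex off by phosphorylation. The cycle oxidises acetyl-CoA and hands electrons to the respiratory chain, which supplies most of the ATP of the beating heart. Leucine, isoleucine and valine are transaminated, decarboxylated by the branched-chain keto acid dehydrogenase complex, and broken down to acetyl-CoA and propionyl-CoA, the second of which feeds succinyl-CoA into the cycle.

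Sdhb and Sdhd, an iron-sulfur and a membrane subunit of succinate dehydrogenase, were lower in early HRas-v12 hearts, as were most of the 38. Pdk3, a pyruvate dehydrogenase kinase, was higher. Most of the lower genes held no match to the motifs below, whereas Sdhb and Sdhd did. The upstream sequences of these 3 genes are shown as examples and do not stand for the 38. Each is the 250 bases before the annotated start in RefSeq, build GRCm38.p6, written 5′ to 3′ on the strand of the gene, with a motif match in capitals. Sdhb lies on the plus strand (chr4:140961021-140961270) and holds GCATGCG, a core of NRF1 sites. Sdhd lies on the minus strand (chr9:50603850-50604099) and holds CCGGAAG, a core of Ets factor sites, on the opposite strand. Pdk3 lies on the minus strand (chrX:93832151-93832400) and holds none of the motifs searched.
Sdhb: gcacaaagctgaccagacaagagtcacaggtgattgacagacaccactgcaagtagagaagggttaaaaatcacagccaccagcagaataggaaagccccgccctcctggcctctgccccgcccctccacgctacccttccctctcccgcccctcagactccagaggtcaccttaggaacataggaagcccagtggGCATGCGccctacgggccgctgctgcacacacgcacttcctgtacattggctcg
Sdhd: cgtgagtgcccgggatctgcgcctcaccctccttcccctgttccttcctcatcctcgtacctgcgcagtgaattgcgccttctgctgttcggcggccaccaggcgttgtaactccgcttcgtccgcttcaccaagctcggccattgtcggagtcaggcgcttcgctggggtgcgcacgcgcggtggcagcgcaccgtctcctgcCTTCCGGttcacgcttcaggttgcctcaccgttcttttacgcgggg
Pdk3: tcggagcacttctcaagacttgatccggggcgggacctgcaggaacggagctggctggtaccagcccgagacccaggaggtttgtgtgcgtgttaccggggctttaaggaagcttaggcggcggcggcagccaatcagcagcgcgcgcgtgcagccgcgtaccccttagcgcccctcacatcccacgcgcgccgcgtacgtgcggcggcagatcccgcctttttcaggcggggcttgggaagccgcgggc
Each motif was searched on both strands of this window, and 35 of the 38 genes had an upstream sequence in the table, which left out Dbt, Sdhc and Idh3a. GCATGCG was found in 4 of the 35 (11.4%), Ogdh, Sdhb, Pdhb and Pccb, against 3.43% of 27025 genes. CCGGAAG was found in 2 of the 35 (5.71%), Idh3g and Sdhd, against 7.83%. AAGGTCA, a half-site of estrogen-related receptors, was found in 0 of the 35, against 4.7%. A match is a string of letters and no measured binding site.

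The labels were checked before any comparison. The probe set of Esr1, the estrogen receptor from which the Mer parts derive, read 294 to 7943 in the shared controls and 12437 to 155949 in 21 of the 24 transgenic arrays. Against their labels, HRas-v12 female early replicate 3 read 688, HRas-v12 male late replicate 1 read 2915 and HRas-v12 male late replicate 3 read 1327. MKK7D control late replicates 8 and 9 read 106402 and 91291, as high as the MKK7D transgenic arrays, while replicate 10 read 953. MKK7D control early replicate 1, titled female, read 6018 for the Y-linked gene Eif2s3y, against 5 and 12 in the other two of its group. These 6 arrays are called the arrays in doubt, and counts are given with and without them; where that leaves a group with 1 array, it is assumed to vary like the others. All 10 cardiomyocyte markers lay above the filter in this tissue, whereas 6 of 8 skeletal muscle markers did not.

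Across the 38 genes the main pattern was a fall in HRas-v12 hearts. Early after induction 33 of the 38 were lower and 1, Pdk3, was higher than in controls (limma adjusted p under 0.05 over 12626 genes, averaged over the difference in each sex). Of all genes tested, 33.8% were called in that comparison, 18.7% lower and 15.1% higher. The estimate was below 0 for 37 of the 38, against 54.4% of all genes. The median log2 change was -0.64, against -0.04 for all genes, 11 genes lay below every control of their sex in all 5 arrays (5.96% of all genes), and the genes not called were Dlat, Pdhx, Bcat2 and Dbt. Without the arrays in doubt 36 were lower and 1 higher, with a median of -0.79, where 42.3% of all genes were called. The count rested on HRas-v12 female early replicate 1: without it, with only the array in doubt left for early females, 13 were lower and 1 higher.

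In late HRas-v12 hearts 10 of the 38 were lower and Pdk3 again higher, against 4.66% lower and 4.86% higher, or 9.52% in all, of the genes tested. The median change was -0.42, against 0.02 for all genes. This count was not steady. It was 1 without the arrays in doubt, where 1.24% of all genes were called, and 1 without HRas-v12 male late replicate 3, 20 without male late replicate 1, 30 without male late replicate 4 and 0 without female late replicate 3. It lay between 4 and 5 without any 1 of 5 of the 6 shared control arrays (female replicate 4 excepted) or without female late replicate 4. Each of the 11 called genes lost its call in 1 to 10 of 12 fits without a single array. The late males lay far apart: the median difference of the 38 genes from the male control mean was 0.01 in replicate 1, -1.06 in replicate 3 and 0.11 in replicate 4. Esr1 read 2915, 1327 and 155949 in these arrays. Leaving out the arrays in doubt thus dropped replicate 3, which had the largest fall, and kept replicate 4, at control level. The 3 late females lay at -0.32, -0.67 and -0.53.

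In early MKK3bE hearts 2 of the 38 were lower, Idh2 and Bckdhb, where 6.26% of all genes were called and 2.78% were lower. The estimate was below 0 for 36 of the 38 (52.4% of all genes), with a median of -0.52. In both arrays 32 of the 38 lay below every female control array, against 22.6% of all genes. The number called depended on how the spread was estimated: 29 were lower and 1 higher without the arrays in doubt, none of which belongs to this comparison, where 16.4% of all genes were called. It was 22 when only the groups compared were fitted, where 5.41% of all genes were lower. Leaving out female control replicate 1 or 4 or either MKK3bE array left 0 called, and leaving out female control replicate 2 left 1.

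Late MKK3bE hearts had 7 of the 38 lower, Idh3b, Dld, Sdhc, Bckdhb, Hibadh, Aldh6a1 and Pcca, where 10.4% of all genes were called and 5.39% were lower. The median change was -0.38, 37 of 38 estimates were below 0 (51.9% of all genes), and 23 genes lay below every sex-matched control in all 5 arrays, against 8.16% of all genes. Without the arrays in doubt 29 were lower and 1 higher, where 20.4% of all genes were called. Without MKK3bE female late replicate 2 no gene was called, and without female replicate 3 the count was 1. It was 2 to 4 without any 1 of the shared male controls, female control replicates 1 and 2, or MKK3bE male late replicate 2.

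In MKK7D hearts limma called 0 of the 38 at either time, where 0.135% of all genes were called early and 0% late. At an unadjusted p under 0.05 there were 4 early and 0 late. The median change was -0.20 early and -0.12 late. Early, 35 of the 38 estimates were below 0 (50.2% of all genes) and 13 genes lay below every control in all 3 arrays (12.1% of all genes). Late, these were 32 of the 38 (46.5% of all genes) and 2 of the 38 (5.53% of all genes). Without the arrays in doubt the late median was -0.49 against a single control array, and 2 genes, Idh3b and Sdhd, were lower, where 3.39% of all genes were called.

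**Figure D1:**
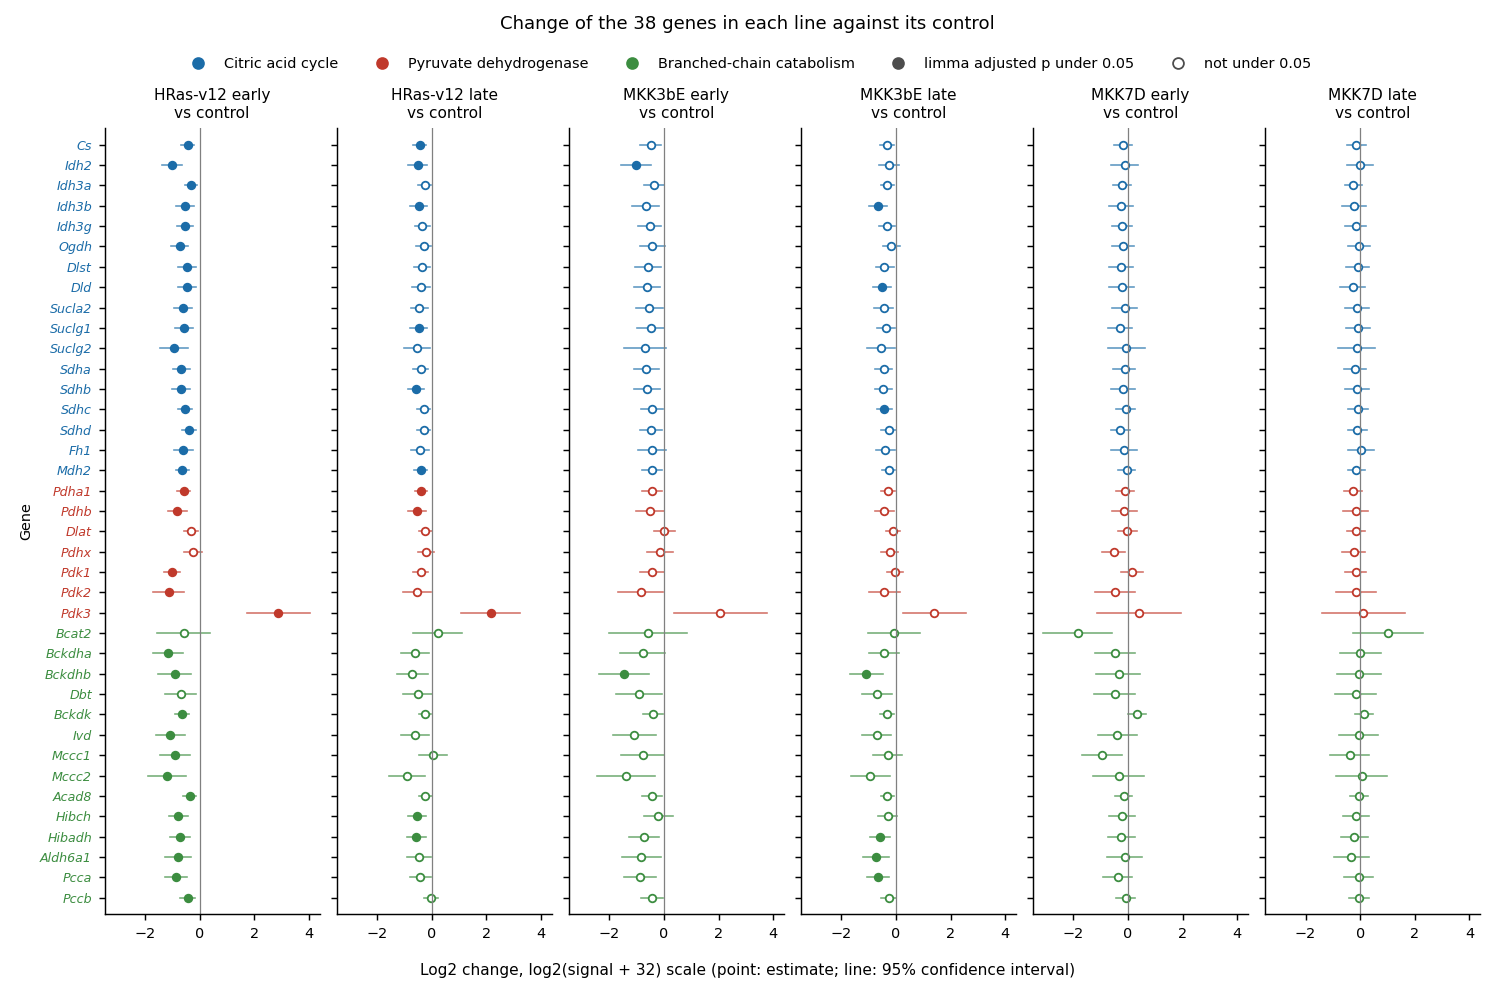
Log2 change of each of the 38 genes (rows, grouped by subpathway) in each line and time against its control, on the log2(signal + 32) scale, with 95% confidence intervals; filled points have a limma adjusted p under 0.05. In early HRas-v12 hearts 33 filled points lie to the left of 0 and Pdk3 lies to the right at 2.88.

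**Figure D2:**
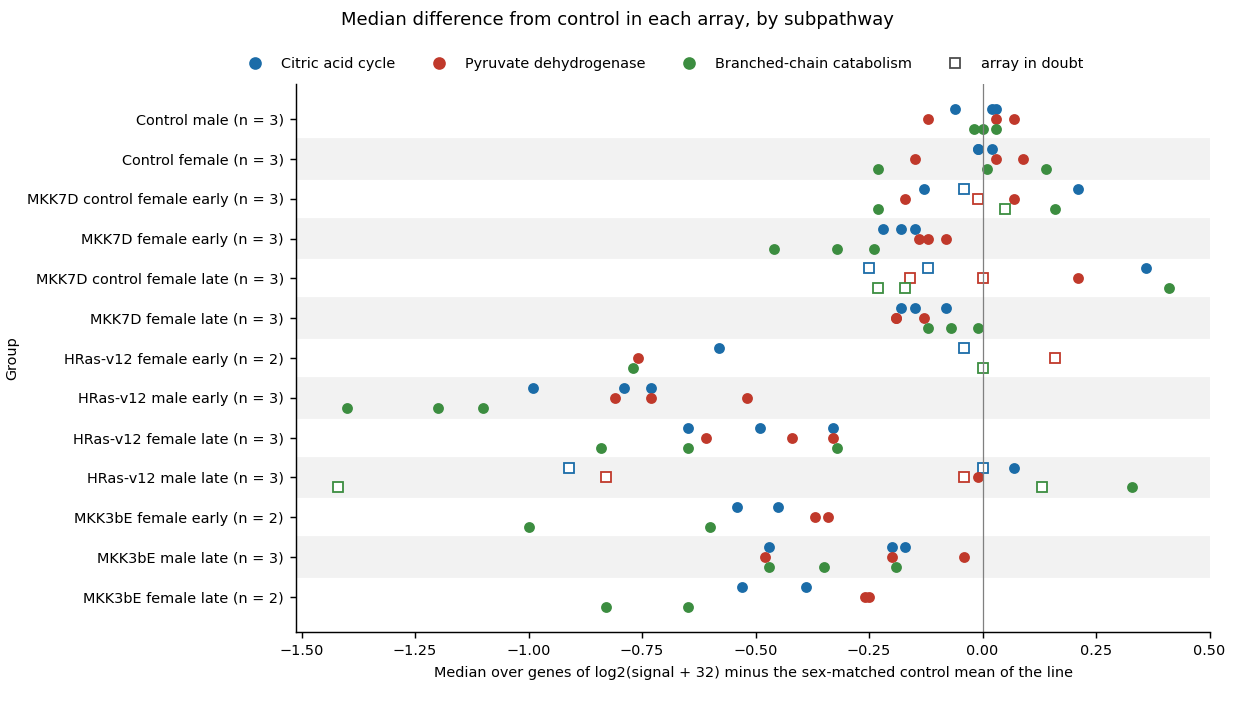
Median difference from the sex-matched control mean of the line in each of the 36 arrays, for the citric acid cycle, pyruvate dehydrogenase and branched-chain genes; open squares are the 6 arrays in doubt. HRas-v12 early males lie lowest together, with branched-chain medians of -1.40, -1.10 and -1.20, and HRas-v12 late males are split.

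RNA of heart muscle cell markers was lower along with these genes in HRas-v12 hearts, but the medians of both sets differed in some comparisons. In the early HRas-v12 male minus female change, the median of the 38 was -0.59 and that of the cardiomyocyte markers 0.01. For early HRas-v12 against MKK3bE females these medians were 0.25 and -0.26, and for early MKK7D -0.20 and -0.01. In each of these comparisons limma called 0 of the 38. The early HRas-v12 females lay at -0.63 for the 38 and -0.83 for the markers in replicate 1. Replicate 3, in doubt, lay at -0.02 and -0.33. The early MKK3bE females lay at -0.58 and -0.17 and at -0.44 and -0.51, so the opposite signs rested on the array in doubt. All 10 cardiomyocyte markers were lower in early HRas-v12 hearts, with a median log2 change of -0.55, and 8 of 10 in late ones, with a median of -0.38. Their summed signal was 1553081 to 2080485 in the shared controls, 1007155 to 1459195 in early and 1095074 to 1567784 in late HRas-v12 arrays. Of 10 macrophage and other leukocyte markers 8 were higher early, with summed signals of 58944 to 91207 in the shared controls and 54293 to 218711 in early HRas-v12 arrays. Fibroblast markers summed to 203411 to 275773 and 209266 to 572699, with 5 of 10 higher and 1 lower. Endothelial markers summed to 66146 to 92982 and 40638 to 82515, with 8 of 10 lower. In early MKK3bE hearts limma called 0 of the 10 cardiomyocyte markers (5 at an unadjusted p under 0.05, median -0.36) and 4 of 10 fibroblast markers higher, with summed signals of 463314 to 536038. In late MKK3bE hearts 5 of 10 fibroblast markers were higher (median 0.74, summed signals of 292486 to 412844), the macrophage and leukocyte markers had a median of 0.73 (86712 to 132925) with 0 of 10 called and 4 at an unadjusted limma p under 0.05, and the cardiomyocyte markers a median of -0.19 with 0 called and 2 at an unadjusted p under 0.05. In late HRas-v12 hearts 3 of 10 fibroblast and 2 of 10 macrophage and leukocyte markers were higher, with summed signals of 200262 to 610165 and 49420 to 292327, and 2 of 10 endothelial markers were lower. The part of these cell markers in the results was not tested. In left ventricle tissue, fewer cardiomyocytes and less RNA of these genes per cardiomyocyte cannot be told apart. Set relative to the mean of the 10 cardiomyocyte markers, a scale that moved the median of all genes to 0.53, the early HRas-v12 count was 5 lower (Idh2, Pdk1, Pdk2, Bckdha and Ivd) and 2 higher (Idh3a and Pdk3), where 2.65% of all genes were lower and 59.2% were called in all. The median of the 38 was -0.06. Under quantile normalization the citric acid cycle median was -0.44 and the branched-chain median -0.79. On that scale 31 of the 38 were lower, against 17.8% of all genes. The marker median was -0.07, with 2 of 10 lower. However, these markers were among the brightest genes, and quantile normalization gives the highest ranks the same values on every array. A small marker change is thus partly built in, so these medians cannot show whether the 38 fell apart from the markers. For late HRas-v12, early MKK3bE and late MKK3bE the relative scale moved the median of all genes to 0.41, 0.31 and 0.20, and the medians of the 38 to -0.02, -0.19 and -0.17.

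**Figure D3:**
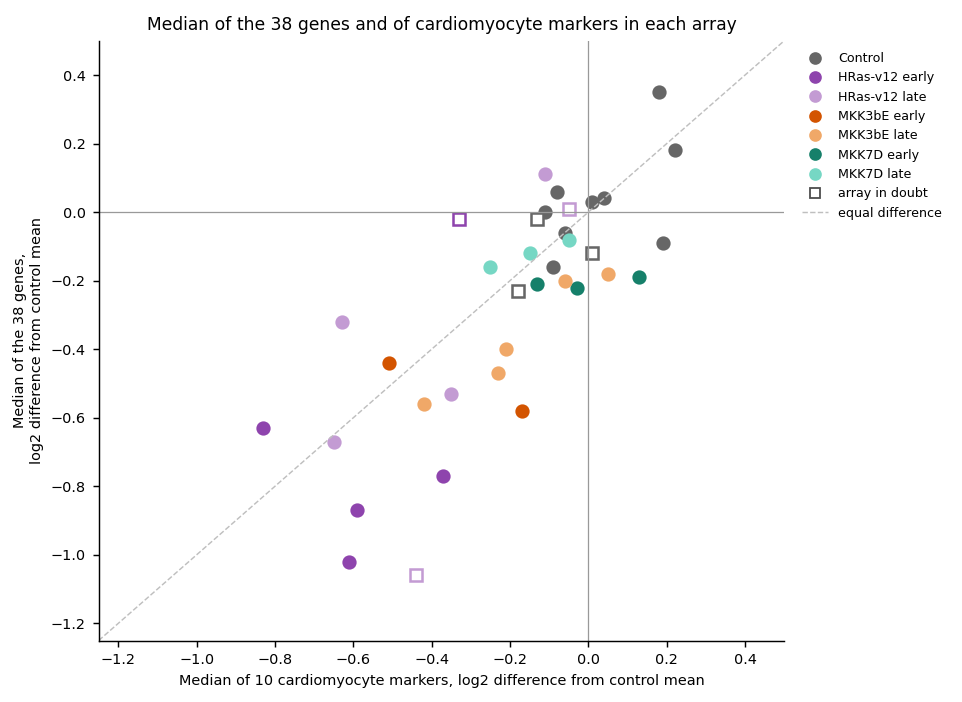
Median of the 38 genes (vertical) against the median of 10 cardiomyocyte markers (horizontal) in each of the 36 arrays, both as log2 difference from the control mean; the dashed line marks equal differences. HRas-v12 early male replicate 1 had a median of -1.02 for the 38 genes and -0.61 for the markers, and HRas-v12 late male replicate 3 had -1.06 and -0.44.

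Within the citric acid cycle all 17 genes were lower in early HRas-v12 hearts (18.7% of all genes), with a median of -0.56 and a range of -1.01 to -0.31. Relative to cardiomyocyte markers 9 of the 17 turned above 0, and the median was 0.02. The late HRas-v12 hearts had 6 of the 17 lower, Cs, Idh2, Idh3b, Suclg1, Sdhb and Mdh2 (4.66% of all genes), and 0 of the 17 under quantile normalization, where 3.6% of all genes were lower. Of all the genes described here and called in late HRas-v12, 8 had further probe sets. These were 10 probe sets, and 4 of them, of Cs, Idh3b and Pdha1, moved opposite to the brightest one. Early MKK3bE hearts had 1 lower (2.78% of all genes), late MKK3bE hearts 3 (5.39%), and MKK7D hearts 0.

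Cs, citrate synthase, joins acetyl-CoA to oxaloacetate at the entry of the cycle. Its signal was 103563, 108533 and 102030 in male and 112506, 112096 and 111494 in female controls. The early HRas-v12 arrays read 75751 and 103765 in females and 68800, 77185 and 68434 in males. Except for female replicate 3, an array in doubt, which read 103765, these lay far below all controls. The change was -0.44 (SE 0.12, limma adjusted p = 0.00646), or 1.36-fold lower. Late females read 74797, 72455 and 83821, and late males 97481, 57270 and 101624, which gave -0.44 again (SE 0.12, limma adjusted p = 0.0229). A second probe set of Cs moved by -0.09 early and 0.02 late, and the third by -0.52 and -0.42.

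Idh2, the mitochondrial isocitrate dehydrogenase that makes NADPH, had the largest fall among the cycle genes. It read 119261, 128029 and 127536 in male controls and 142481, 140353 and 127380 in female controls. Early HRas-v12 females read 69786 and 116394, and early males 33545, 70983 and 42934, all below every control of their sex. Both early MKK3bE arrays, at 67524 and 68063, lay at about the level of the first HRas-v12 female. The change was -1.01 in early HRas-v12 (SE 0.18, 2.01-fold lower, limma adjusted p = 0.000196) and -1.01 in early MKK3bE (SE 0.27, limma adjusted p = 0.0222). Relative to cardiomyocyte markers it was -0.43 and -0.68, with limma adjusted p of 0.00263 and 0.02. Late HRas-v12 arrays read 91093, 72957 and 90406 in females and 125412, 66457 and 113932 in males, a change of -0.52 (SE 0.17, limma adjusted p = 0.049). In late MKK3bE the females read 101165 and 117527 and the males 94152, 121772 and 111259, with a change of -0.26 (SE 0.18, limma adjusted p = 0.362). A dimmer probe set of Idh2 moved by -0.29 in early HRas-v12 and by 0.08 in early MKK3bE.

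The NAD-dependent isocitrate dehydrogenase is built from Idh3a, Idh3b and Idh3g. In early HRas-v12 hearts the changes were -0.31, -0.53 and -0.53, with limma adjusted p of 0.0379, 0.0117 and 0.00463. The Idh3a call was lost in 7 of 11 fits without a single array, with adjusted p of up to 0.297 without HRas-v12 female early replicate 1. Idh3a was higher, by 0.27, once set relative to cardiomyocyte markers (limma adjusted p = 0.0165), and Idh3b and Idh3g were at 0.05. Idh3b was the cycle gene with the largest fall in late MKK3bE hearts. It read 50364, 40461 and 51157 in male and 40730, 49898 and 57641 in female controls, against 31615, 30525 and 35051 in late MKK3bE males and 27308 and 29976 in females. None of these 5 arrays overlapped a control of its sex, and the change was -0.66 (SE 0.16, 1.58-fold lower, limma adjusted p = 0.00954), or 0.0549 in adjusted p without MKK3bE female late replicate 2. A second probe set of Idh3b moved by -0.20 there and by 0.12 in early HRas-v12, opposite to the brightest one. The third moved by -0.17 and -0.25 in these comparisons. In late HRas-v12 both of these dimmer probe sets moved up, by 0.26 and 0.03, against -0.47 for the brightest.

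The 2-oxoglutarate dehydrogenase complex consists of Ogdh, Dlst and Dld, and Dld also serves the pyruvate and the branched-chain complexes. Ogdh fell most of the 3 in early HRas-v12 hearts, by 0.73 on the log2 scale (SE 0.15, 1.66-fold lower, limma adjusted p = 0.000656). Its signal was 78181 to 103598 in the 6 controls, and in early HRas-v12 it was 56283 and 94126 in females and 39373, 46999 and 46094 in males. In late HRas-v12 arrays Ogdh read 77744, 68662 and 74206 in females and 97237, 50923 and 103565 in males, so that every female but a single male lay below the controls. The late change was -0.30 (95% confidence interval -0.58 to -0.01, limma adjusted p = 0.166). Dlst and Dld changed by -0.45 and -0.48 early (limma adjusted p = 0.0278 and 0.0227). Dimmer Dlst probe sets moved by -0.16 and 0.09 in early HRas-v12, the second opposite to the brightest. Dld was also lower in late MKK3bE hearts, with a log2 change of -0.51 (SE 0.16, limma adjusted p = 0.0428). The males read 25461, 36706 and 37927 against 44428, 45590 and 45761 and the females 28027 and 27232 against 33784, 37564 and 52705, with no overlap in either sex.

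Succinyl-CoA ligase pairs Suclg1 with either Sucla2, the ATP-forming subunit, or Suclg2, the GTP-forming one. In early HRas-v12 hearts Suclg2 changed by -0.95 (SE 0.25, limma adjusted p = 0.0048), Sucla2 by -0.60 (SE 0.16, limma adjusted p = 0.00575) and Suclg1 by -0.56 (SE 0.16, limma adjusted p = 0.00903). Suclg2 read 46106, 35642 and 33182 in male controls and 8944, 14409 and 13223 in early HRas-v12 males, which lay well apart. In females the controls read 35877, 36106 and 45769 and the HRas-v12 arrays 25123 and 44010, so the array in doubt overlapped them. Late males read 39801, 10764 and 47453, with replicate 3 alone below the controls.

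Succinate dehydrogenase, which links the cycle to the respiratory chain, had all of its genes Sdha, Sdhb, Sdhc and Sdhd lower in early HRas-v12 hearts. The changes were -0.68, -0.69, -0.55 and -0.39, with limma adjusted p of 0.00122, 0.0016, 0.00179 and 0.0191. Relative to cardiomyocyte markers they were -0.10, -0.11, 0.03 and 0.19. Sdhb read 116424, 127313 and 113432 in male and 138385, 136359 and 129068 in female controls. Early HRas-v12 arrays read 59779, 72436 and 65125 in males and 76791 and 115644 in females, all below the controls of their sex. Sdhb was also lower in late HRas-v12 (-0.58, SE 0.15, limma adjusted p = 0.0204), with 87816, 73771 and 85330 in females and 118298, 50981 and 110146 in males. It was the single gene called without the arrays in doubt (-0.41, limma adjusted p = 0.0415). In late MKK3bE hearts Sdhc was lower (-0.42, SE 0.13, limma adjusted p = 0.0355), and Sdha and Sdhb had values of -0.44 and -0.46 (limma adjusted p = 0.0553 and 0.0566).

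Fh1, fumarate hydratase, and Mdh2, the malate dehydrogenase that closes the cycle, changed by -0.60 (SE 0.17, limma adjusted p = 0.0082) and -0.64 (SE 0.12, limma adjusted p = 0.000269) in early HRas-v12 hearts. Mdh2 read 125721 to 156821 in the 6 shared controls, 80924 and 105782 in early HRas-v12 females and 80186, 83248 and 78813 in early males, with no overlap. Late HRas-v12 females read 101711, 87939 and 109019 and late males 121511, 73497 and 123638, and although all lay below the controls of their sex, males 1 and 4 did so narrowly. That change was -0.41 (SE 0.11, limma adjusted p = 0.0258). Cs and Mdh2 were the only genes of the 38 without overlap in late HRas-v12, where 1.65% of all genes lay below every control of their sex.

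The pyruvate dehydrogenase genes split into catalytic subunits, core proteins and kinases. In early HRas-v12 hearts 4 of the 7 were lower, the catalytic subunits Pdha1 and Pdhb and the kinases Pdk1 and Pdk2, and the kinase Pdk3 was higher. Dlat, the acetyltransferase core, and Pdhx, which binds the shared Dld subunit, had values of -0.31 (SE 0.12, limma adjusted p = 0.0508) and -0.25 (SE 0.15, limma adjusted p = 0.224). Pdha1 and Pdhb were lower and Pdk3 higher in late HRas-v12 hearts, and 0 of the 7 passed in MKK3bE or MKK7D hearts at either time, where 4 early and 3 late in MKK3bE, and 1 early and 0 late in MKK7D, had an unadjusted limma p under 0.05.

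Pdha1 and Pdhb form the enzyme that decarboxylates pyruvate. Pdhb read 96186, 93555 and 85570 in male and 83014, 94096 and 87321 in female controls. Early HRas-v12 males read 35398, 40102 and 40267, below every control, and the females 51947 and 87330, of which the second, in doubt, lay among the controls. The early change was -0.82 (SE 0.17, 1.76-fold lower, limma adjusted p = 0.000677). In late hearts it was -0.54 (SE 0.16, limma adjusted p = 0.0334), when females read 69185, 52901 and 60957 and males 83706, 34724 and 86635. For Pdha1 the early change was -0.59 (SE 0.12, limma adjusted p = 0.000664) and the late one -0.39 (SE 0.11, limma adjusted p = 0.0323). On quantile-normalized values the late Pdha1 change was -0.06, and relative to cardiomyocyte markers it was 0.00. Its second probe set moved by -0.30 early and 0.09 late.

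The kinases moved in opposite directions. Pdk1 read 20840, 18522 and 17059 in male and 18317, 23456 and 24761 in female controls. Early HRas-v12 males read 5330, 7559 and 9074 and females 10604 and 19060, a change of -1.01 (SE 0.14, 2.01-fold lower, limma adjusted p = 3.01e-05). Every early array but the female in doubt lay below all controls. Pdk1 was lower also relative to cardiomyocyte markers (-0.43, limma adjusted p = 0.0155). Late HRas-v12 females read 15980, 11600 and 13753, below all female controls, and males 18250, 13988 and 20680. Late MKK3bE arrays, at 17690 to 23843, overlapped the controls, with a change of -0.04 (95% confidence interval -0.33 to 0.26). Dimmer probe sets of Pdk1 moved by -0.43 and -0.40 in early HRas-v12, and by -0.15 and -0.03 in late HRas-v12. In late MKK3bE they moved by -0.29 and -0.39.

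Pdk2, the most widely expressed of these kinases, read 30042, 41203 and 31096 in male and 35237, 42482 and 40105 in female controls. The early HRas-v12 males read 7311, 9918 and 9590, and the females read 19720 and 47717, of which the second, in doubt, was above all controls. The change was -1.14 (SE 0.27, 2.2-fold lower, limma adjusted p = 0.00209), and it stood at an adjusted p of 0.0608 without female early replicate 1. Late HRas-v12 males read 41201, 9435 and 40032, so replicate 3 was as low as the early males and the others lay at control level. Early MKK3bE arrays read 18049 and 26114, below the female controls, at -0.85 (SE 0.40, limma adjusted p = 0.198).

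Pdk3 was the exception of the 38. It read 446, 408 and 254 in male and 154, 37 and 74 in female controls, low signals in a range where detection was not assessed. Early HRas-v12 males read 3123, 1504 and 2035 and females 2381 and 462. All 5 lay above the controls of their sex, as 4.05% of all genes did. The change was 2.88 on the log2(signal + 32) scale (SE 0.56, limma adjusted p = 0.000441), or an adjusted p of 0.000586 with no filter on low values. With control signals this low its size depends on the added 32, so no fold is given. Late HRas-v12 females read 880, 2374 and 2346, all above their controls, while late males read 205, 4199 and 94, with replicate 3 alone above them. That change was 2.16 (SE 0.53, limma adjusted p = 0.018, and 0.0259 with no filter), 1.16 (limma adjusted p = 0.104) without the arrays in doubt, and the adjusted p was 0.0581 without female late replicate 3. In MKK3bE the early females read 379 and 497 and the late females 969 and 559, above the shared female controls, and the late males 215, 378 and 594. These changes were 2.07 (SE 0.83, limma adjusted p = 0.131) and 1.41 (SE 0.56, limma adjusted p = 0.104). The female controls of the MKK7D line read 374 to 624, more than the shared female controls at 37 to 154, so the reference level of this gene in females differed between control groups. Among these the controls not in doubt read 374 to 490. Of the early MKK3bE females 1 lay within that range and the other, at 497, just above it. Of the 5 HRas-v12 female arrays 4 lay above 624, and the array in doubt, at 462, did not.

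Pdk4, a kinase known to rise in fasting and not counted among the 38, was not called in any of the 6 comparisons against control. Its values were 0.13 in early HRas-v12 (SE 0.36), -0.11 in late HRas-v12, 0.82 in early MKK3bE (SE 0.54) and 0.73 in late MKK3bE (SE 0.36, limma adjusted p = 0.202). The arrays of single groups spread widely, as in male controls at 28172, 9346 and 31585. Pdp1, a phosphatase that switches pyruvate dehydrogenase back on, was higher in early HRas-v12 (0.78, SE 0.15, limma adjusted p = 0.000415), with males at 19289, 13891 and 16339 against 7810, 7143 and 5561. Pdp2, the second phosphatase, was lower in early HRas-v12 (-0.88, limma adjusted p = 0.0135) and late MKK3bE (-1.06, limma adjusted p = 0.0127).

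**Figure D4:**
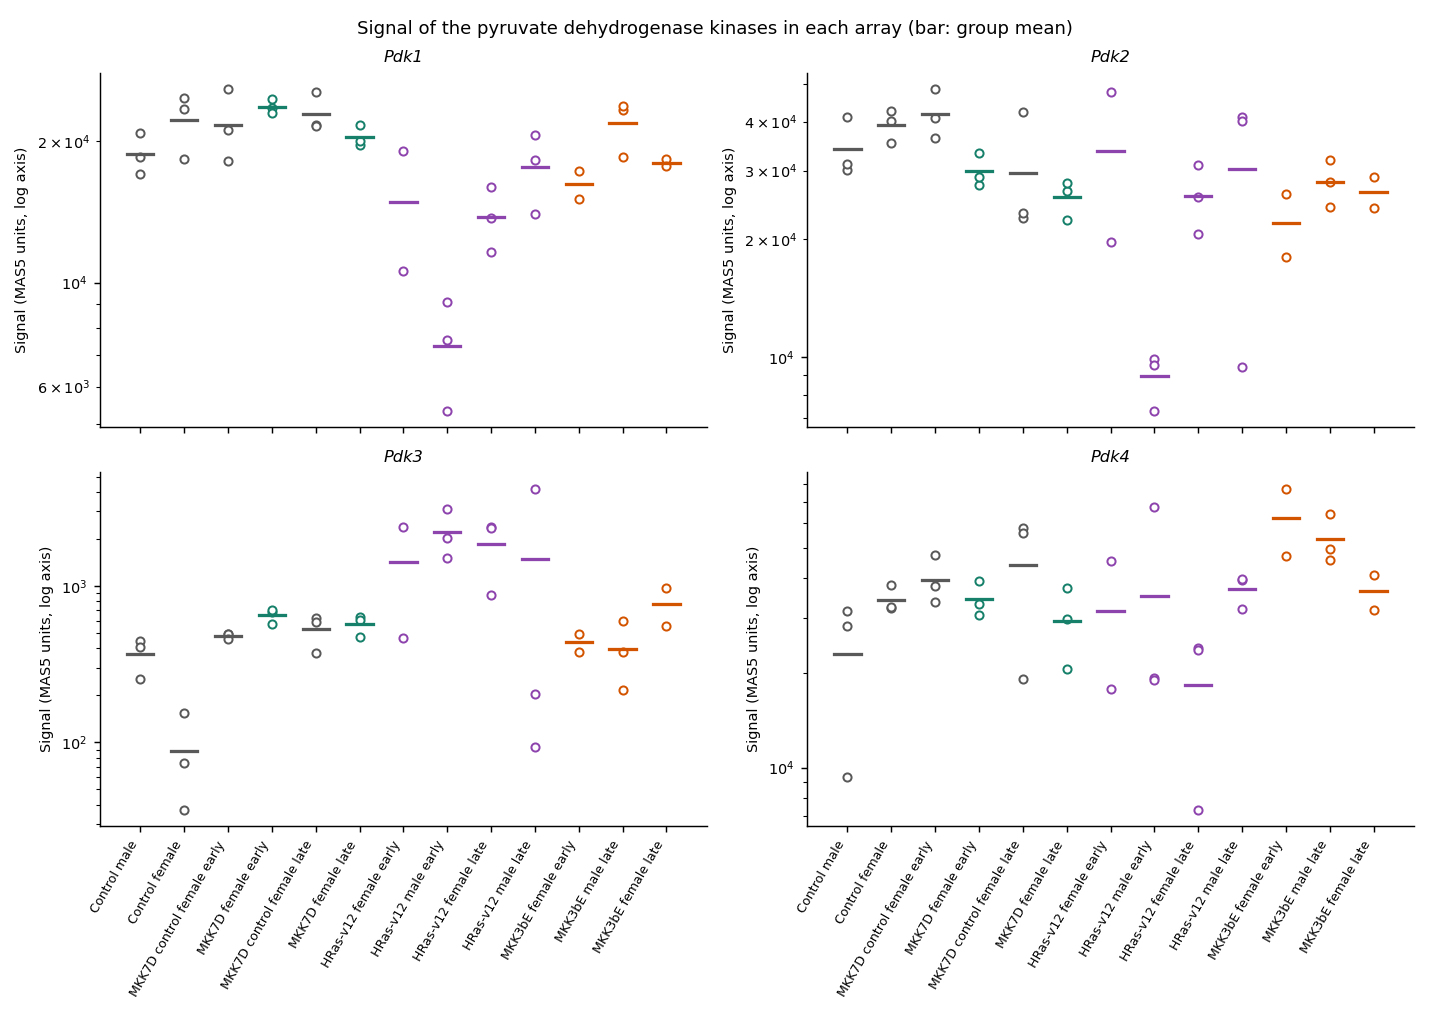
Signal of the kinases Pdk1, Pdk2, Pdk3 and Pdk4 in every array by group on a log axis, with bars at group means. Early HRas-v12 males read 5330 to 9074 for Pdk1 and 7311 to 9918 for Pdk2, below the arrays of all other groups except HRas-v12 late male replicate 3, at 9435 for Pdk2, and 1504 to 3123 for Pdk3.

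Of the 14 branched-chain genes 12 were lower in early HRas-v12 hearts (18.7% of all genes), with a median of -0.79. The uncalled Bcat2 and Dbt had values of -0.59 and -0.70 (limma adjusted p = 0.348 and 0.0508). Late HRas-v12 hearts had 2 lower, Hibch and Hibadh (4.66% of all genes), and 0 without the arrays in doubt, where 0.578% of all genes were lower. Early MKK3bE hearts had 1 lower (2.78% of all genes) and late MKK3bE hearts 4 (5.39%). Relative to cardiomyocyte markers the early HRas-v12 median was -0.21, and Acad8 and Pccb turned to 0.21 and 0.14.

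Bcat2, the mitochondrial transaminase of the first step, varied too widely within groups to separate them: male controls read 9014, 3424 and 10358 and early HRas-v12 males 4793, 8642 and 1981. In the early MKK7D comparison it had the largest difference of the 38, -1.84 (SE 0.62, limma adjusted p = 0.231), with 3302, 1979 and 2889 in transgenic and 11141, 7850 and 10257 in control arrays, which did not overlap.

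The branched-chain keto acid dehydrogenase complex catalyses the committed step. Its catalytic subunits are Bckdha and Bckdhb, its core is Dbt, and Bckdk is the kinase that switches it off. Bckdha read 19982, 20664 and 20182 in male and 22999, 25053 and 22009 in female controls, a narrow range. Early HRas-v12 arrays read 5537, 9302 and 5938 in males and 9828 and 20269 in females, all below the controls of their sex. The change was -1.15 (SE 0.27, 2.22-fold lower, limma adjusted p = 0.00186), and -0.57 relative to cardiomyocyte markers (limma adjusted p = 0.0216). Late HRas-v12 males read 22187, 6089 and 25404, with replicate 3 alone below the controls, and females 17881, 10862 and 12808, below all controls. Early MKK3bE arrays read 11719 and 15799, and late ones 16370, 17416 and 18100 in males and 13774 and 16239 in females, all below their controls. Those MKK3bE changes, -0.78 (SE 0.40) and -0.43 (SE 0.27), were not called (limma adjusted p = 0.241 and 0.314).

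Bckdhb was the gene with the largest fall of the 38 in MKK3bE hearts at both times. It read 17826, 14988 and 13484 in male and 13768, 16143 and 22129 in female controls. The early MKK3bE females read 5145 and 7375, the late females 7729 and 6907 and the late males 7563, 7691 and 8100. These 7 arrays lay close together and far below the 6 shared controls. The MKK7D controls, of another line, read 17516, 12730 and 21666 early. Late they read 8606 and 10438 in replicates 8 and 9, in doubt, and 17959 in replicate 10. The changes were -1.46 early (SE 0.44, 2.75-fold lower, limma adjusted p = 0.0436) and -1.10 late (SE 0.29, 2.14-fold lower, limma adjusted p = 0.0178). The late fall was also called relative to cardiomyocyte markers (-0.88, limma adjusted p = 0.03), and the early one was not (-1.13, limma adjusted p = 0.0703). In leave-one-out fits the early call was lost without each array of the comparison in turn, and the late call without MKK3bE female late replicate 2 or 3 (limma adjusted p = 0.0577 and 0.0796). Early HRas-v12 males read 5921, 5171 and 6486 and females 7466 and 20786, a change of -0.92 (SE 0.29, limma adjusted p = 0.0173) that had an adjusted p of 0.254 without female replicate 1. Late HRas-v12 males read 15424, 3573 and 19376.

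Dbt, also without overlap among males, read 12271, 10776 and 9332 in male controls, 4026, 4491 and 5105 in early HRas-v12 males and 6550, 7091 and 7406 in late MKK3bE males. Without the arrays in doubt its early HRas-v12 change of -0.93 was called (limma adjusted p = 0.000155). Bckdk, the kinase, was lower in early HRas-v12 hearts too (-0.64, SE 0.12, 1.56-fold, limma adjusted p = 0.000341), with males at 5360, 4271 and 4695 against 8929, 8628 and 8243. In early MKK7D hearts Bckdk read 10231, 9292 and 9566 against 6994, 8046 and 8014 in the controls, higher in all 3 arrays, at 0.34 (SE 0.16, limma adjusted p = 0.46). Of all genes, 11.3% lay above every control there. Ppm1k, the phosphatase that switches the complex on and no member of the 38, was lower in early HRas-v12 (-1.44, SE 0.28, 2.72-fold, limma adjusted p = 0.000459) and late MKK3bE (-0.95, SE 0.28, limma adjusted p = 0.0318).

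**Figure D5:**
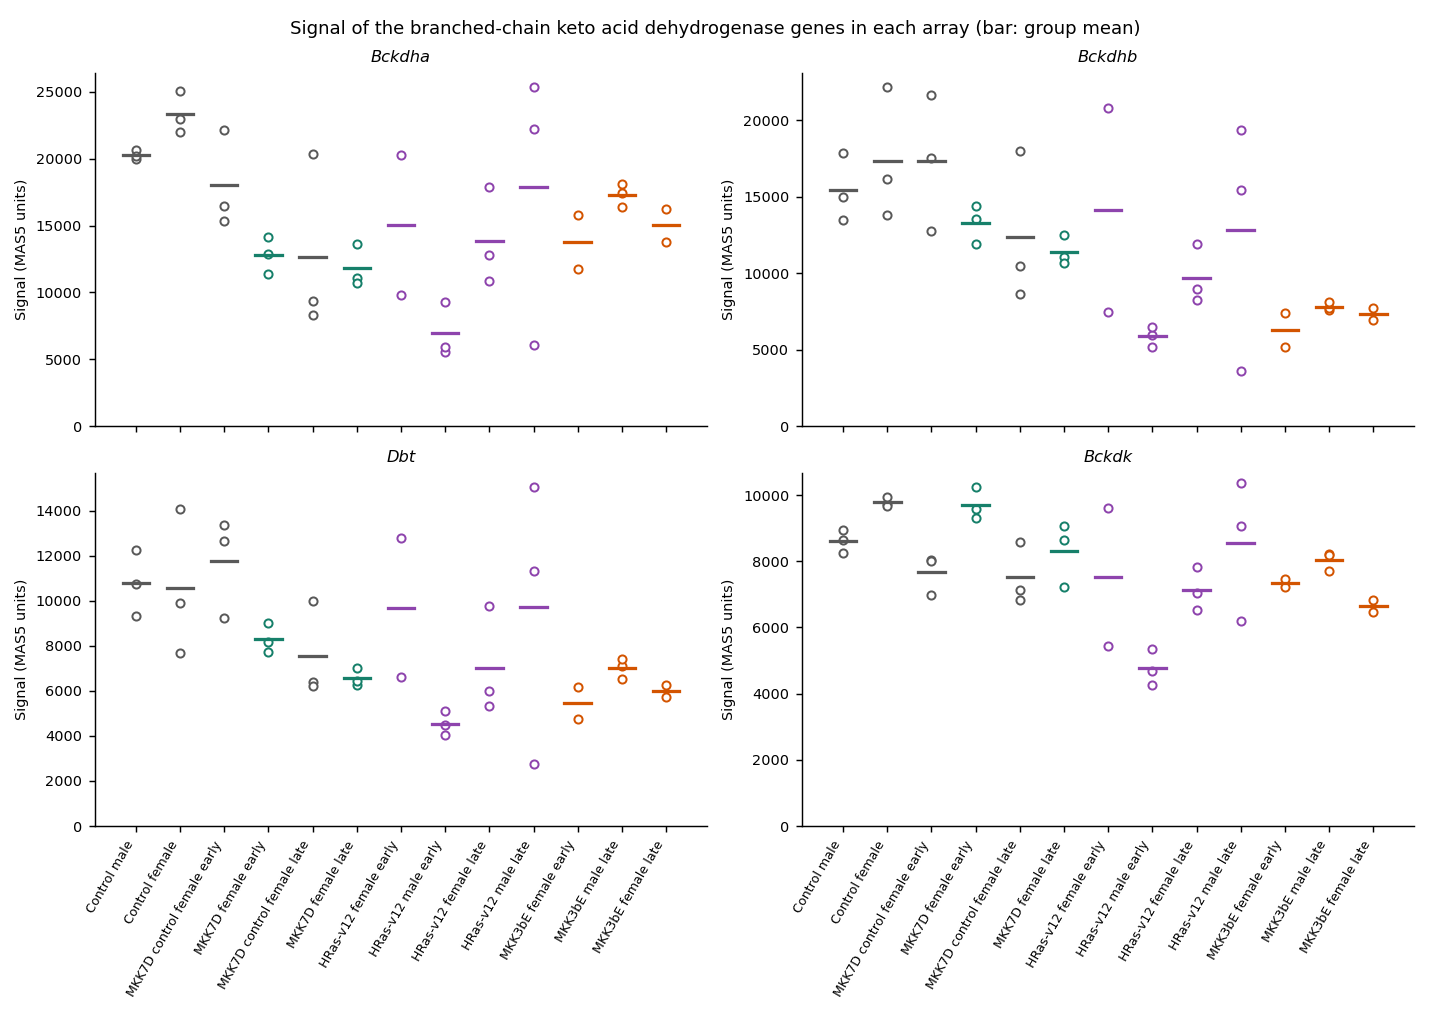
Signal of Bckdha, Bckdhb, Dbt and Bckdk in every array by group on linear axes from 0, with bars at group means. The 7 MKK3bE arrays lie at 5145 to 8100 for Bckdhb, below the 6 shared controls at 13484 to 22129.

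In the leucine branch, Ivd, isovaleryl-CoA dehydrogenase, and Mccc1 and Mccc2, the subunits of methylcrotonyl-CoA carboxylase, were lower in early HRas-v12 hearts. Mccc2 had the largest fall of the 38, -1.19 (SE 0.34, 2.29-fold, limma adjusted p = 0.00864). It read 8492, 10272 and 9490 in male and 8512, 12630 and 11743 in female controls, against 2283, 2743 and 2265 in early males and 4529 and 13834 in early females, where the array in doubt lay above all controls. In late HRas-v12 males it read 10868, 1562 and 11833. All 7 MKK3bE arrays, at 3724 to 5944, lay below all 6 controls, yet the changes of -1.38 (SE 0.51) and -0.94 (SE 0.34) were not called (limma adjusted p = 0.101 and 0.0774). Ivd changed by -1.07 in early HRas-v12 (SE 0.26, limma adjusted p = 0.00263), with males at 6777, 8914 and 7270 against 22820, 24992 and 20861. Without female early replicate 1 the adjusted p was 0.155 for Mccc2 and 0.061 for Ivd. Mccc1 ranged from 6206 to 18979 in the controls and changed by -0.90 (SE 0.26, limma adjusted p = 0.00976).

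The valine branch holds Acad8, Hibch, Hibadh and Aldh6a1, which act in that order. Their early HRas-v12 changes were -0.37, -0.79, -0.71 and -0.79 (limma adjusted p = 0.0148, 0.00101, 0.0033 and 0.0103). Hibch and Hibadh were also lower in late HRas-v12, at -0.54 and -0.56 on the log2 scale (SE 0.16 and 0.17, limma adjusted p = 0.0371 and 0.0383). Hibadh read 56941, 58873 and 55721 in male and 51775, 57924 and 62392 in female controls. Late HRas-v12 females read 45247, 30386 and 35490, below all of these, and late males 54604, 21643 and 59815, of which replicates 1 and 3 lay below the male controls. In late MKK3bE hearts Hibadh read 36741, 43837 and 43046 in males and 33830 and 37099 in females, a change of -0.58 (SE 0.18, limma adjusted p = 0.0366). Aldh6a1, methylmalonate semialdehyde dehydrogenase, was lower there at -0.73 (SE 0.23, limma adjusted p = 0.0422), with 16343, 17344 and 17051 in males against 22574, 24918 and 23705.

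Propionyl-CoA carboxylase, a step on the route by which valine and isoleucine carbon reaches the cycle, is made of Pcca and Pccb. Early HRas-v12 changes were -0.86 for Pcca (SE 0.20, 1.82-fold, limma adjusted p = 0.00148) and -0.44 for Pccb (SE 0.13, limma adjusted p = 0.0103). Pcca read 19951, 20239 and 17207 in male controls, 6381, 7073 and 8226 in early HRas-v12 males and 10992, 13927 and 15580 in late MKK3bE males. Its late MKK3bE change was -0.65 (SE 0.20, limma adjusted p = 0.0328). A dimmer Pcca probe set moved by -0.09 in early HRas-v12 and -0.32 in late MKK3bE. Mmut, the mutase that follows and no member of the 38, was lower in early HRas-v12 (-0.97), late HRas-v12 (-0.65) and late MKK3bE (-0.69), with limma adjusted p of 0.000765, 0.0318 and 0.0274.

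The pathway's other genes were taken from a list of 48 that held neighbouring enzymes, carriers and regulators, of which 44 were tested. In early HRas-v12 hearts 24 were lower and 2 higher, Pdp1 and Bcat1, the cytosolic transaminase, against 18.7% and 15.1% of all genes. Bcat1 read 457, 270 and 297 in male and 659, 538 and 357 in female controls, low signals near the filter. Early HRas-v12 males read 4064, 1003 and 3319, and females 674 and 239. Like Pdk3, Bcat1 was kept through the arrays in which it was high, and detection was not assessed. The late HRas-v12 hearts had 7 lower (4.66% of all genes), early MKK3bE hearts 3, Got1, Ldhb and Ppara (2.78%), late MKK3bE hearts 7 (5.39%) and MKK7D hearts 0. Klf15, a transcription factor known to drive branched-chain catabolism in muscle, had the largest fall of the list in early HRas-v12, -3.02 (SE 0.43, limma adjusted p = 3.08e-05). It read 5120, 5403 and 4119 in male controls and 107, 574 and 73 in early HRas-v12 males, of which 2 lay under the signal that matches the filter, and 9206, 10794 and 9461 in female controls against 1653 and 7448. In late HRas-v12 hearts its value was -0.69 (SE 0.41, limma adjusted p = 0.268). The nuclear receptor genes Esrrg, Esrrb and Ppara, known regulators of cardiac oxidative genes, fell in early HRas-v12 by 1.19, 1.14 and 1.14 on the log2 scale (limma adjusted p = 0.000178, 0.000133 and 0.00237). Ppara was also lower in early MKK3bE (-1.52, SE 0.41, limma adjusted p = 0.025). Not every regulator of the list was lower in early HRas-v12 males: Nrf1 read 1314, 1207 and 1552, against 1100, 1210 and 1686 in male controls.

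Differences between times were tested directly. In HRas-v12 hearts 4 of the 38 were higher late than early, Pdk1, Bckdk, Mccc1 and Pccb, where 11.6% of all genes were called and 6.91% were higher. Of the 38 estimates 37 were above 0, with a median of 0.22, while 42.1% of all genes had an estimate below 0. Without the arrays in doubt 35 were higher late and 1, Pdk3, lower, where 26.1% of all genes were called. It was 28 without HRas-v12 male late replicate 3, 9 without female early replicate 3, and 0 without female early replicate 1. Leaving out early male replicate 1 or 3, late female replicate 2 or 4, or late male replicate 1 or 4 gave 1 or 2. The fit without the arrays in doubt kept replicate 4 as its only late male, whose median difference from the male controls was 0.11. In MKK3bE females 0 of the 38 differed between times (0.00792% of all genes, 1 of the 38 at an unadjusted limma p under 0.05, median 0.06). The MKK7D change did not differ between times for any of the 38 (0.0158% of all genes, 1 at an unadjusted limma p under 0.05).

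Differences between the HRas-v12 and MKK3bE lines were tested with the shared controls cancelling. Early HRas-v12 and MKK3bE females did not differ for any of the 38 in limma (1.81% of all genes, 1 at an unadjusted p under 0.05), and 1 was called when the arrays in doubt were left out, where 4.39% of all genes were. Late HRas-v12 and MKK3bE hearts differed for 0 of the 38 (3.95% of all genes, 1 at an unadjusted limma p under 0.05), with a median difference of 0.01. For Bckdhb that late difference was 0.39 (95% confidence interval -0.21 to 0.99) and for Pdk1 -0.36 (95% confidence interval -0.66 to -0.06, limma adjusted p = 0.173). Dimmer Pdk1 probe sets had the opposite order, with smaller falls in late HRas-v12 (-0.15 and -0.03) than in late MKK3bE (-0.29 and -0.39). Without the arrays in doubt 6 genes were higher in late HRas-v12 than in late MKK3bE, Bckdhb among them at 0.85 (limma adjusted p = 0.00333), where 6.45% of all genes were called. Without HRas-v12 male late replicate 3 alone the count was 2. The late HRas-v12 change in females minus the late MKK7D change was called for 0 of the 38 (0% of all genes, 2 at an unadjusted limma p under 0.05), with a median of -0.41.

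Between the sexes, the early HRas-v12 change was lower in males for all 38 estimates (54.8% of all genes), with a median difference of -0.59, but limma called 0 (1.1% of all genes, 15 of the 38 at an unadjusted p under 0.05). Of the female arrays behind it, 1 is in doubt and lay at a median of -0.02, the other at -0.63, and the 3 males lay at -1.02, -0.77 and -0.87. Without female replicate 1, with only the array in doubt left, 9 were called. The late change differed between sexes for 0 of the 38 (0% of all genes, 2 at an unadjusted limma p under 0.05), and 7 were called once the arrays in doubt were left out, with 1 late male array remaining, where 3.77% of all genes were.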

How the data were processed

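Left ventricle RNA of 36 arrays was compared. The deposited values are signal intensity per probe set, made with MAS5 by the authors per the submitters' processing notes; for its version, nothing is given in the sources used here. Array medians were 593.5 to 798.6, and a mean trimmed by 2% at each end was 2500. Detection calls were not used. Of 45101 probe sets, 34958 had 1 gene symbol, 932 several and 9211 none in the platform annotation. From these values log2(signal + 32) was computed, the brightest probe set per gene was kept, and the upper 60% by mean was tested. A model with 13 group means over 36 arrays was fitted with limma 3.58.1 in R 4.3.3 (lmFit, eBayes with trend), with Benjamini-Hochberg adjustment over 12626 genes and 14 comparisons. Sexes were averaged where a line had both. The script was tested on simulated data.

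Genes were named as members of the 38, as pathway genes of the second list, or as the label checks Esr1, Eif2s3y and Map2k3. For early HRas-v12 several genes of the second list, such as Ppm1k, Mmut, Ppara and Pdp2, were named after their values were seen. The members and all lists were chosen with earlier results of these data known. Same-numbered arrays were checked for pairing: of 57 pairs across groups 8 correlated over 0.1, with a median of -0.01, so the numbers were not taken to pair arrays. Map2k3, the gene of MKK3, read 10720 to 16236 in the MKK3bE arrays and 10176 to 16640 in the shared controls. It did not tell these groups apart, and whether its probe set reads the transgene was not tested. Hras and Map2k7 were not analysed here.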

Additional observations from a re-analysis of the deposited data

Results flagged for a closer look

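Of the 38 genes, 4 had a change against the shared controls that differed between the times after HRas-v12 induction by the direct test of late against early hearts. Pdk1 was higher late by 0.61 on the log2 scale (limma adjusted p = 0.00742), Mccc1 by 0.94 (limma adjusted p = 0.0213), Bckdk by 0.39 (limma adjusted p = 0.035) and Pccb by 0.41 (limma adjusted p = 0.0411). Each array of both times enters this test, and without HRas-v12 female early replicate 1 none of the 4 was called. For Pdk1 the early arrays read 10604 and 19060 in females and 5330, 7559 and 9074 in males, against 15980, 11600 and 13753 in late females and 18250, 13988 and 20680 in late males.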

How the results depend on the processing

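Counts of the 38 genes called changed with several settings, and the cause was not tested. For early HRas-v12 (34 called) the count was 13 with a replicate block and 7 relative to 10 cardiomyocyte markers, a scale added after the data were seen, and 14 to 36 without single arrays. For late HRas-v12 (11) it was 6 with no filter, 1 with quantile normalization, 4 with the mean of all probe sets, 0 with only the groups compared, 1 without the 6 arrays in doubt, 0 with the block, 2 on the relative scale and 0 to 30 without single arrays; with only the groups compared and with the block 0 of all 12626 genes were called. For early MKK3bE (2) it was 1 with no filter, 22 with only the groups compared, 30 without the arrays in doubt, 0 with the block, 1 on the relative scale and 0 to 1 without single arrays. For late MKK3bE (7) the same settings gave 4, 31, 30, 0 and 1, quantile normalization 4, and leaving out single arrays 0 to 6. MKK7D gave 2 early with only the groups compared and 2 late without the arrays in doubt. HRas-v12 late against early (4) gave 8 with quantile normalization, 0 with only the groups compared, 36 without the arrays in doubt, 0 with the block, 0 on the relative scale and 0 to 28 without single arrays. HRas-v12 against MKK3bE gave 1 early and 6 late without the arrays in doubt, and 0 to 2 late without single arrays. The late HRas-v12 change minus that of MKK7D gave 1 with only the groups compared and 1 without the arrays in doubt. The sex difference of the early change gave 1 with quantile normalization, 1 on the relative scale and 0 to 9 without single arrays, and that of the late change 7 without the arrays in doubt and 0 to 1 without single arrays. No paired analysis was possible for MKK7D because its groups share no replicate numbers.

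On the relative scale 13 of the 38 estimates turned sign in early HRas-v12 and 12 in late HRas-v12. Those with a call on either scale turned in early HRas-v12 to 0.13 for Cs, 0.27 for Idh3a, 0.05 for Idh3b, 0.05 for Idh3g, 0.13 for Dlst, 0.10 for Dld, 0.02 for Suclg1, 0.03 for Sdhc, 0.19 for Sdhd, 0.21 for Acad8 and 0.14 for Pccb, and in late HRas-v12 to 0.00 for Pdha1 and 0.35 for Pccb. Over all alternatives, the 38 genes and the 6 comparisons against control, 3573 values kept direction and call, 282 lost a call, 149 gained one and 132 turned sign. Of these 132, 13 had a call in either fit, all on the relative scale, and 119 had none, 45 of them in late MKK7D under other settings. Few arrays per group limit all of these.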
